A study of Homo sapiens with 8 samples.

Results

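The human HOX genes are 39 of the 20037 protein-coding genes that RefSeq places on chromosomes 1 to 22, X and Y of GRCh38.p14, the assembly also called hg38, and they were taken by symbol (HOXA, HOXB, HOXC or HOXD followed by a paralog number). The label held when checked against the annotation: 11 HOXA genes lie together on chromosome 7 (27092993 to 27200091), 10 HOXB genes on chromosome 17 (48528526 to 48728750), 9 HOXC genes on chromosome 12 (53938831 to 54056030) and 9 HOXD genes on chromosome 2 (176087487 to 176190907). The spans, each measured from the start of the first to the end of the last HOX gene, are 107.1, 200.2, 117.2 and 103.4 kb long. Members are not independent of each other: the HOXA3 gene body contains HOXA4, HOXA5 and HOXA6, HOXB3 contains HOXB4, HOXC4, HOXC5 and HOXC6 share an annotated start, and HOXD3 overlaps HOXD4.

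The domain lists came from 4 CUT&RUN libraries made with an anti-macroH2A1 antibody in HepG2, a human hepatoblastoma cell line. The siANP32B group (2 libraries, replicates 1 and 2) had been transfected with an siRNA against the histone chaperone gene ANP32B and the siControl group (2 libraries, replicates 1 and 2) with a control siRNA, 3 days before harvest. All libraries came from cryopreserved cells, in which a nuclease tethered by the antibody released DNA for 30 min. A further 4 libraries made with IgG were not analysed here. The labels name 1 siRNA per group and 1 cell line, and do not say whether replicates were separate cultures, so the spread between libraries may be technical. The domain lists hold no expression values, so neither the knockdown nor the cell type could be checked against marker genes.

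HOX genes encode homeodomain transcription factors that set the identity of body segments along the head-to-tail axis. Within a cluster, low-numbered paralogs lie at the 3′ end and act towards the head, and high-numbered paralogs lie at the 5′ end and act towards the tail and in limbs. Silent HOX clusters are a textbook target of Polycomb repression, and macroH2A variants replace histone H2A mostly in weakly transcribed chromatin and carry an additional globular macro domain. ANP32B belongs to a family of acidic proteins that bind histones. The comparison asks where macroH2A1 domains lie over the HOX clusters and whether they differ after siANP32B.

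Promoter sequences show which gene starts lie near the domain borders in HOXA. These borders fall on a 1 kb grid but differ between libraries by more than that. RefSeq promoter windows (250 bases before to 50 after a gene start, GRCh38.p14) were found for 20 of the 39 genes, 27 windows in all because HOXA3 and HOXA10 have several starts. HOXC4 and HOXC5 share an identical window. The windows printed below run along HOXA from a stretch without domains to one inside domains of every library. They are written 5′ to 3′ on the minus strand with each CG dinucleotide in capitals. HOXA6 and HOXA7 flank domain borders, HOXA9 had one of the largest differences between group means, and HOXA13 was added after its values were seen as a promoter inside a domain in all 4 libraries. The HOXA6 window, chr7:27147725-27148024, was reached by a domain in siControl replicate 1 alone, over 8% of its bases. HOXA3 windows between HOXA6 and HOXA7 are not printed. The one at chr7:27150901-27151200 lay in a domain of siControl replicate 1 alone, and chr7:27152534-27152833 in domains of replicate 1 of both groups. The HOXA7 window, chr7:27156626-27156925, and the HOXA9 window, chr7:27165488-27165787, lay in domains of both siANP32B libraries and of siControl replicate 1. The HOXA13 window is chr7:27200042-27200341.
HOXA6: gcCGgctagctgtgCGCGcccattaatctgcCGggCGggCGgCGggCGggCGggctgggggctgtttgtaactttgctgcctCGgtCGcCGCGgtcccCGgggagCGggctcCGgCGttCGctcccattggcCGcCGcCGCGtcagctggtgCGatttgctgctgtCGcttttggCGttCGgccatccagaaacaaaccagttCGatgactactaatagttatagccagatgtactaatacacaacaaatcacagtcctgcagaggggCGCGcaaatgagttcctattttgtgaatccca
HOXA7: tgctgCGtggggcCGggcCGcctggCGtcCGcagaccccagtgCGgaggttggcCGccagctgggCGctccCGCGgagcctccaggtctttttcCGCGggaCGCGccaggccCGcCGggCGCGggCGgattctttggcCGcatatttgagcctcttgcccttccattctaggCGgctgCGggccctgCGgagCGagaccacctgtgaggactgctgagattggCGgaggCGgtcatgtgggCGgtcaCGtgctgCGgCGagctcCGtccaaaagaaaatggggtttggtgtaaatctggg
HOXA9: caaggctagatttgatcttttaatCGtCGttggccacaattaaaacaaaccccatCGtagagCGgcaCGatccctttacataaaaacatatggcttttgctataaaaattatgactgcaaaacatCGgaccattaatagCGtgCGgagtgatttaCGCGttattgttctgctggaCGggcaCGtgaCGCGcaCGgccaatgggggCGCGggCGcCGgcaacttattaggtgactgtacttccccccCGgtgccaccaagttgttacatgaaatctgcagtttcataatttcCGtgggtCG
HOXA13: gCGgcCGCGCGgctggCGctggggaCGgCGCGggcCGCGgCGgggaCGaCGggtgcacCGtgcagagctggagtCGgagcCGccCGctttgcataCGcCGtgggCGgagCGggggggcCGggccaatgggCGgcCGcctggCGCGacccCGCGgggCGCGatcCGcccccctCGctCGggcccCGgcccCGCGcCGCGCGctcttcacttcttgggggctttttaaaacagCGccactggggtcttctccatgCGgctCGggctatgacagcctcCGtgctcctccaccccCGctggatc
These windows hold 29, 31, 22 and 44 CG dinucleotides. The motif CG reads the same on both strands, and at least 15 of them were found in 74.1% of the 27 HOX windows and in 62.3% of 22183 windows of all protein-coding genes. The median was 22 for HOX windows and 21 for all windows. Among the 8 HOX windows in no domain, HOXA6 included, the CG count ranged from 0 to 29. Among the 4 windows inside domains of every library, which belong to HOXA10, HOXA13 and HOXB1, it ranged from 11 to 44. Windows rich in CG thus lay both inside and outside domains. A window was counted in a domain when at least 50% of its bases were, and none of these counts was tested.

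HOX clusters also hold the genes of the miR-196 and miR-10 families, small RNAs of which several are known to target HOX messages. Mature sequences from RefSeq are shown with the seed (bases 2 to 8) in capitals, since miR-196 genes in different clusters share it and their domains can be set side by side.
hsa-miR-196a-5p: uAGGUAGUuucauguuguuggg
hsa-miR-196b-5p: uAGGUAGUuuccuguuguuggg
hsa-miR-10a-5p: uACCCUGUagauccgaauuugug
hsa-miR-10b-3p: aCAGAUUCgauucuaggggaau
The seed AGGUAGU is shared by miR-196a-5p, which comes from MIR196A1 in HOXB and MIR196A2 in HOXC, and miR-196b-5p from MIR196B in HOXA. The miR-10 sequences shown are opposite arms, from MIR10A in HOXB and MIR10B in HOXD, and have different seeds; miR-10b-5p is not shown. MIR196A1 and MIR196A2 lay wholly inside domains in all 4 libraries. MIR196B was wholly inside domains in both siANP32B libraries and in siControl replicate 1, and outside them in siControl replicate 2. MIR10A in HOXB had the same pattern as MIR196B, whereas MIR10B in HOXD was inside a domain in replicate 1 of each group and in neither replicate 2 library.

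For HOXB, HOXC and HOXD the domain coverage of siANP32B and siControl libraries overlapped, and for HOXA both siANP32B libraries lay above both siControl libraries. A gene is called covered here if 50% or more of its body lay in a domain. By that rule 29 and 24 of the 39 HOX genes were covered in siANP32B replicates 1 and 2, against 32 and 11 in siControl replicates 1 and 2. Covered in both libraries of a group were 20 HOX genes (51.3%) in siANP32B and 10 (25.6%) in siControl cells, against 17.2% and 13.7% of all protein-coding genes. The same 10 genes were covered in all 4 libraries (25.6%, against 11.5% of all protein-coding genes), among them HOXA10, HOXA11, HOXA13, HOXB1, HOXB2, HOXB13, HOXC10, HOXC12 and HOXC13. In no library were HOXA3, HOXA4, HOXA5 and HOXA6 covered.

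The gap between the group counts rested on 1 library. Without siControl replicate 2, 32 HOX genes were covered in the remaining siControl library, more than in either siANP32B library, and without siControl replicate 1 the siControl count was 11. The share of the annotated genome span in domains was 18.3% and 18.1% in siANP32B replicates 1 and 2, against 16.8% and 15.1% in siControl replicates 1 and 2, so that siControl replicate 2 had the smallest. The depth of the libraries is unknown, and its part in these counts was not tested. For no HOX gene did both siANP32B libraries lie above both siControl libraries in coverage, and for no HOX gene did both lie below. Genes at 100% in a siControl library could not lie above, as with all of HOXB in siControl replicate 1. Genes at 0% in a siControl library could not lie below, as with all of HOXD in siControl replicate 2. The absence of such HOX genes is thus no measure of a lack of change. Across all protein-coding genes 8.98% had both siANP32B libraries above and 2.92% had both below. The median difference in coverage (siANP32B minus siControl) was 0 percentage points over the HOX genes and 0 over all protein-coding genes.

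**Figure D1:**
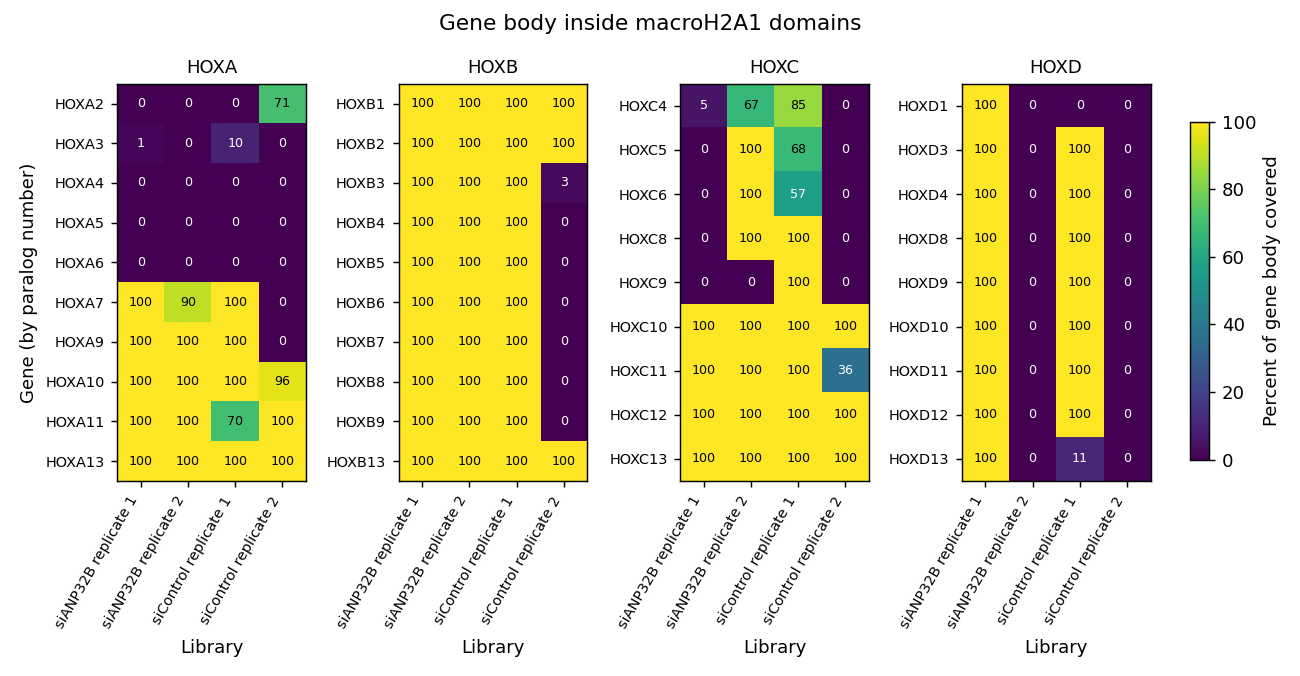
Percent of each HOX gene body inside macroH2A1 domains (colour and number) for HOX genes in rows, by paralog number, and 4 libraries in columns, siANP32B left of siControl. HOXA3 to HOXA6 are dark in every library, HOXB3 to HOXB9 are dark in siControl replicate 2 alone, and HOXD is dark in replicate 2 of both groups.

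The HOXA cluster was divided by a stretch of 46 kb that lay in no domain of any library. It ran from 27102001 to 27148000 on chromosome 7 and held HOXA4 and HOXA5, which in mouse have roles in the neck vertebrae and the lung, HOXA6, most of HOXA3, a gene needed for the thymus in mouse, and a part of HOXA2. Domain coverage of the span was 46.8% in each siANP32B library, against 43.98% and 35.6% in siControl replicates 1 and 2. The mean was 46.8% ± 0 in siANP32B and 39.8% ± 5.94 in siControl libraries (SD, n = 2 each). The SD of 0 came from equal totals, not from identical domains. Of 54 kb of the span in a domain of either siANP32B library, 50 kb lay in both. The difference of 7.0 percentage points had a two-sided exact permutation p of 0.333, the smallest that 2 libraries against 2 can give. It was 0.50 points when only gene bodies were counted. It was 37.4 points when each library was limited to the same number of top-scoring domains. The equal number was 7404 domains, against lists of 7530 and 7404 in siANP32B and 8623 and 8116 in siControl replicates 1 and 2. That limit thus removed mostly siControl domains of low score. The HOXA difference turned to -3.27 points among domains at or above the median score of all lists.

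HOXA2, a gene of the second branchial arch, was covered by 0% in both siANP32B libraries, against 0% and 70.7% in siControl replicates 1 and 2. The noncoding gene HOTAIRM1, next to HOXA2, was covered by 0% and 21.8% in siANP32B, against 21.8% and 100% in siControl libraries.

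At the 5′ end, the genes HOXA7 to HOXA13 lay in domains in most libraries. HOXA13, which patterns the distal limb, was fully covered in all 4 libraries, and HOXA10, known for its role in the uterus, by 100% in both siANP32B libraries and by 100% and 95.7% in siControl libraries. HOXA9, a gene of blood progenitors that is often active in leukaemia, was covered by 100% in both siANP32B libraries, against 100% and 0% in siControl replicates 1 and 2. HOXA7 followed HOXA9, with 100% and 90.4% in siANP32B and 100% and 0% in siControl libraries. The domain began at 27152001 and 27154001 in siANP32B replicates 1 and 2, 2 kb apart, and at 27148001 and 27171001 in siControl replicates 1 and 2, 23 kb apart. siControl replicate 1 had a break between 27184000 and 27193001, over part of HOXA11. HOXA11, a gene of limb and kidney patterning in mouse, was covered by 100% in both siANP32B libraries, against 69.8% and 100% in siControl replicates 1 and 2. HOXA11-AS, the antisense gene of HOXA11, lay in that break and was covered by 100% in both siANP32B libraries, against 0% and 100% in siControl replicates 1 and 2. The 5′ domains that start nearest to HOXA7 had low scores for their lists. In siANP32B replicates 1 and 2 they were 28.7 and 34.2, at or above 4.52% and 8.62% of all domains. In siControl replicates 1 and 2 they were 41.3 and 40.5 (5.75% and 2.07%). The separate siControl replicate 1 domain over HOXA13 had a score of 72.7, at or above 34.4% of its list. The score is the domain caller's own and served to rank domains within a list. Only the cut at the median score of all lists, 81.1, compared scores across lists. Median scores were 70.1 and 67.5 in siANP32B replicates 1 and 2, against 88.9 and 97.7 in siControl replicates 1 and 2. That cut thus kept a smaller share of the siANP32B domains.

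**Figure D2:**
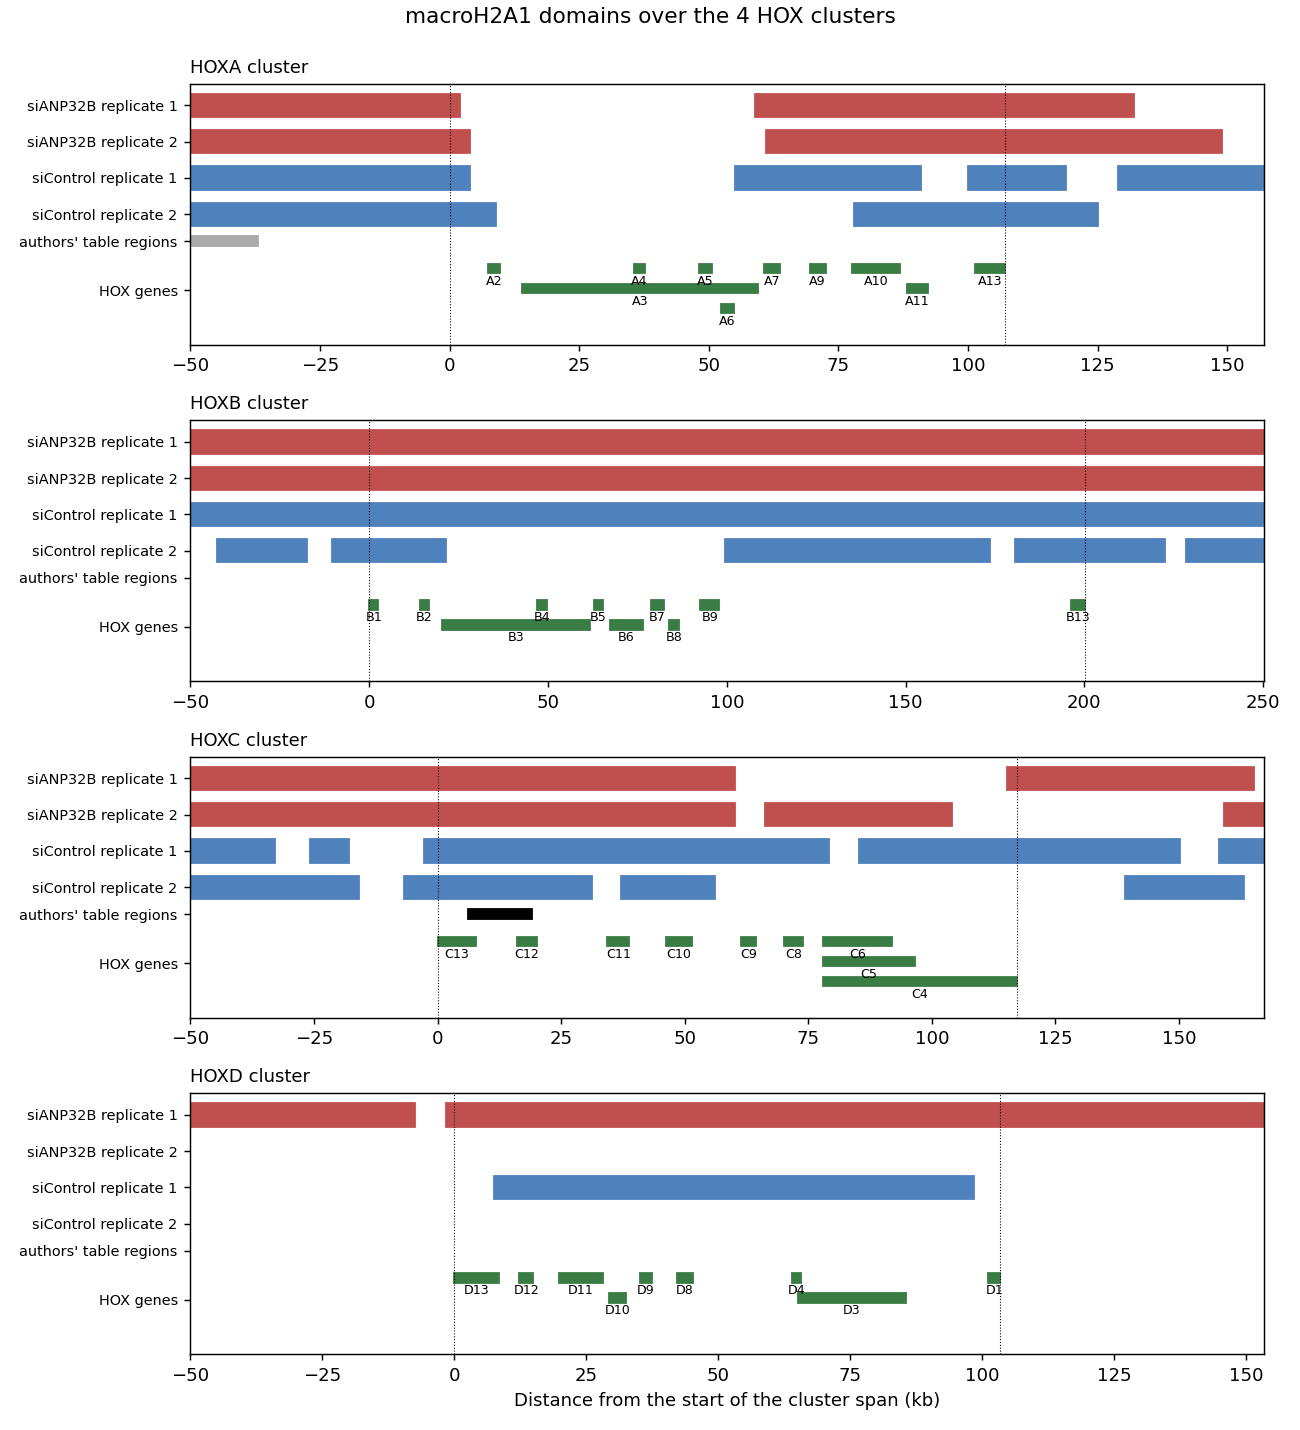
Domains (bars) in the 4 libraries over each HOX cluster, with 50 kb added on each side, by distance in kb from the start of the cluster span (dotted lines mark its ends). Red bars are siANP32B and blue bars siControl libraries. The regions shown from the authors' table are black where lower and grey where not called, and green boxes are bodies of the HOX genes shown. The HOXA gap of 46 kb is empty in all libraries.

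HOXB lay within a single long domain in 3 of the 4 libraries. All 200.2 kb of the span were in domains in both siANP32B libraries and in siControl replicate 1, and 57.5% in siControl replicate 2. The domain was 477 and 741 kb long in siANP32B replicates 1 and 2, against 362 kb in siControl replicate 1, longer than at least 99% of the domains in each list. It reached over TTLL6 on the HOXB13 side in all of them. SKAP1, the neighbour 83.5 kb from HOXB1, was covered by 97.8% and 100% in siANP32B, against 34.0% and 68.7% in siControl libraries, counting every domain that overlaps the gene. The scores of these long domains were low within their lists, 48.9 and 27.4 in siANP32B and 58.2 in siControl replicate 1 (24.1%, 3.84% and 19.7%).

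In siControl replicate 2 the HOXB span held 3 separate domains, with 78 kb between 48550001 and 48628000 outside them. That stretch held HOXB4, a gene of blood stem cells, HOXB5, HOXB6, HOXB7, HOXB8 and HOXB9, each at 100% in both siANP32B libraries, against 100% and 0% in siControl replicates 1 and 2. HOXB3, which reaches into the stretch, was at 100% in both siANP32B libraries, against 100% and 2.73% in siControl libraries. HOXB1 and HOXB2, genes of hindbrain patterning at the 3′ end, and HOXB13, a gene of the prostate at the far 5′ end, were at 100% in all 4 libraries. The separate domains of siControl replicate 2 had scores of 72.8, 85.3 and 117.0, at or above 25.4%, 37.8% and 66.8% of its list. Mean coverage was 100% ± 0 in siANP32B and 78.8% ± 30.0 in siControl libraries (SD, n = 2 each, two-sided exact permutation p = 1). The difference of 21.2 points was 0 without siControl replicate 2. The 4 noncoding genes wholly in the stretch, HOXB-AS2, MIR10A, HOXBLINC and HOXB-AS3, followed their neighbours, with 100% in 3 libraries and 0% in siControl replicate 2.

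HOXC was covered at its 5′ end in every library, and its 3′ end varied. Coverage of the span was 53.1% and 83.8% in siANP32B replicates 1 and 2, against 94.9% and 42.8% in siControl replicates 1 and 2. The means were 68.4% ± 21.7 and 68.8% ± 36.8 (SD, n = 2 each), a difference of -0.43 points with a two-sided exact permutation p of 1. Both siANP32B values lay between the siControl values. HOXC13, known for hair and nail formation, HOXC12 and HOXC10 were fully covered in all 4 libraries, and HOXC11 in both siANP32B libraries (100%) and siControl replicate 1 (100%) but by 36.4% in siControl replicate 2. HOTAIR, a long noncoding RNA gene between HOXC12 and HOXC11, was covered by 100% in both siANP32B libraries, against 100% and 60.8% in siControl libraries.

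The 3′ genes of HOXC split the libraries across the groups. HOXC8, which acts in the thoracic region in mouse, was covered by 0% and 100% in siANP32B replicates 1 and 2, against 100% and 0% in siControl replicates 1 and 2. HOXC6 followed with 0% and 100% in siANP32B, against 56.9% and 0% in siControl libraries, HOXC5 with 0% and 100%, against 67.5% and 0%, and HOXC4 with 5.19% and 66.7%, against 84.7% and 0%. HOXC9, also a gene of the thoracic region, was covered by 0% in both siANP32B libraries, against 100% and 0% in siControl replicates 1 and 2. MIR615, inside HOXC5, had the pattern of HOXC8. The 5′ domain ended at 53999000 in both siANP32B libraries, against 54018000 and 53970000 in siControl replicates 1 and 2. In siControl replicate 2 a separate domain followed from 53976001 to 53995000. Both siANP32B ends thus fell on the same 1 kb grid position, between HOXC10 and HOXC9. HOXC-AS2 and HOXC-AS1, noncoding genes on either side of this end, were covered by 100% and 0% in each siANP32B library, by 100% and 100% in siControl replicate 1 and by 0% and 0% in siControl replicate 2. The score of the domain over HOXC4 to HOXC8 in siANP32B replicate 2 was low, 34.9 (9.72% of its list). In siControl replicate 1 the domain that holds most of HOXC4 had a score of 29.7 (1.25% of its list), whereas the one over HOXC8 and HOXC9 had 110.4 (68.3%).

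HOXD was in a domain in replicate 1 of each group and in no domain in replicate 2 of either. Coverage of the span was 100% and 0% in siANP32B replicates 1 and 2, against 88.0% and 0% in siControl replicates 1 and 2. The difference between group means, 6.01 points, was far below the spread between replicates (50% ± 70.7 in siANP32B and 43.99% ± 62.2 in siControl, SD, n = 2 each, two-sided exact permutation p = 1). Its sign depended on single libraries, with -43.99 points without siANP32B replicate 1 and -38.0 points without siControl replicate 2. The siANP32B replicate 1 domain of 184 kb began just before HOXD13, a gene of digit formation, and ran past HOXD1. The siControl replicate 1 domain of 91 kb began inside HOXD13, at 176095001, and ended at 176186000, short of HOXD1. HOXD13 was covered by 100% and 11.2% in these 2 libraries and HOXD1 by 100% and 0%, whereas HOXD3, HOXD4, HOXD8, HOXD9, HOXD10, HOXD11 and HOXD12 were fully covered in both.

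Both HOXD domains were near the bottom of their lists. The score was 25.99 in siANP32B replicate 1, at or above 3.09% of its 7530 domains, and 28.5 in siControl replicate 1, at or above 1.02% of its 8623 domains. In the replicate 2 libraries the nearest domain ended 605.5 kb to the left of the span, in both, and the nearest one on the right began 220.1 kb away in siANP32B and 178.1 kb away in siControl cells. Whole chromosome 2 did not split in this way, with 29.2% and 29.6% of it in domains in siANP32B and 25.1% and 23.7% in siControl libraries. Without HOXD, 20 and 24 of the other 30 HOX genes were covered in siANP32B and 25 and 11 in siControl libraries.

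**Figure D3:**
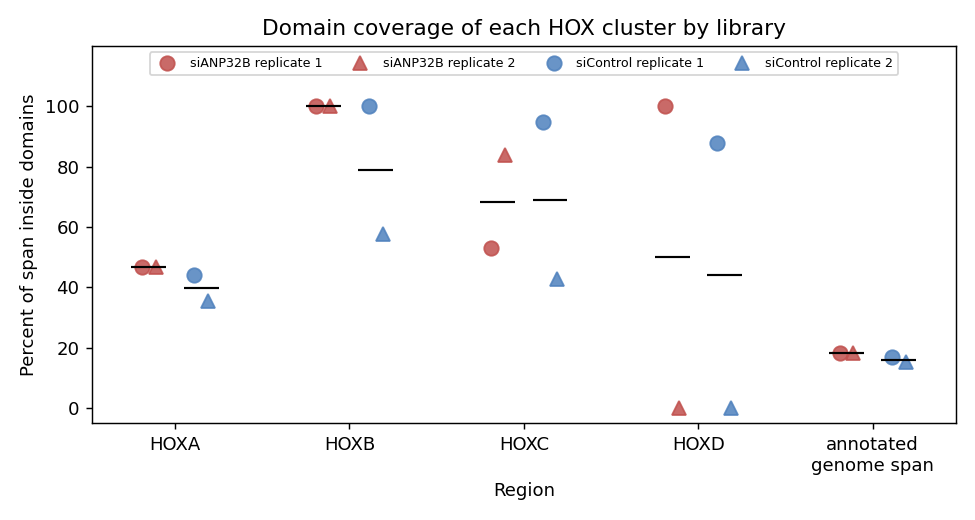
Percent of each HOX cluster span, and of the annotated genome span, inside domains (y axis) for the 4 libraries (points, circles for replicate 1 and triangles for replicate 2), siANP32B left of siControl, with black lines for group means. The replicates of HOXC and HOXD lie further apart than the group means, and the genome values lie between 15.1% and 18.3%.

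Within the clusters the libraries shared a like part of their domain sequence as in the whole genome. Of 487 kb of the clusters in a domain of any library, 191 kb (39.2%) lay in domains of all 4, against 40.6% genome-wide. By cluster, the 1 kb bins in domains of all 4 libraries were 22.0% of HOXA, 57.7% of HOXB, 42.9% of HOXC and 0% of HOXD, against 10.2% of the genome. The base-pair Jaccard index over the 4 clusters was 0.677 between the siANP32B libraries and 0.412 between the siControl libraries. Between siANP32B and siControl libraries it ranged from 0.467 to 0.838, the highest value being that of the replicate 1 libraries. Genome-wide the values were 0.644 and 0.629 within the groups and 0.574 to 0.621 between them. HOXD adds to the high value of the replicate 1 pair, with an index of 0.875 there.

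Domain borders around HOX clusters were, by their median distance, further apart between libraries than borders genome-wide. For each border inside a span or up to 50 kb outside it, the distance to the nearest border of the same side in a paired library was taken. The median was 29 kb between siANP32B and siControl libraries (100 distances) and 21.5 kb between replicates (50 distances). Genome-wide the medians were 14 and 12 kb. In HOXA the medians were 13 kb between groups and 6 kb between replicates, in HOXC 24.5 and 19 kb, in HOXB 154.5 and 130 kb and in HOXD 194.5 and 299.5 kb. In the HOXB and HOXD windows most borders had no near counterpart: all 9 HOXB borders belonged to siControl replicate 2 and all 4 HOXD borders to the replicate 1 libraries. Within 5 kb of a border in the paired library lay 16% of HOX borders between groups and 24% between replicates, against 31.3% and 34.3% genome-wide. Between replicates the median was 17 kb in siANP32B and 23 kb in siControl cells, against 13 and 11 kb genome-wide. The siANP32B replicates had 40% of HOX borders within 5 kb of each other, above the 32.8% genome-wide, and the siControl replicates 17.1%, below the 35.6% genome-wide. The short replicate distance of HOXA came from siANP32B, with a median of 2 kb over 6 distances, against 22 kb over 9 distances in siControl cells. Distances were taken in both directions of each pair, so borders nearest to each other enter once per direction with the same distance. Several pairs also share a library, so the distances are not independent and no test was made.

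**Figure D4:**
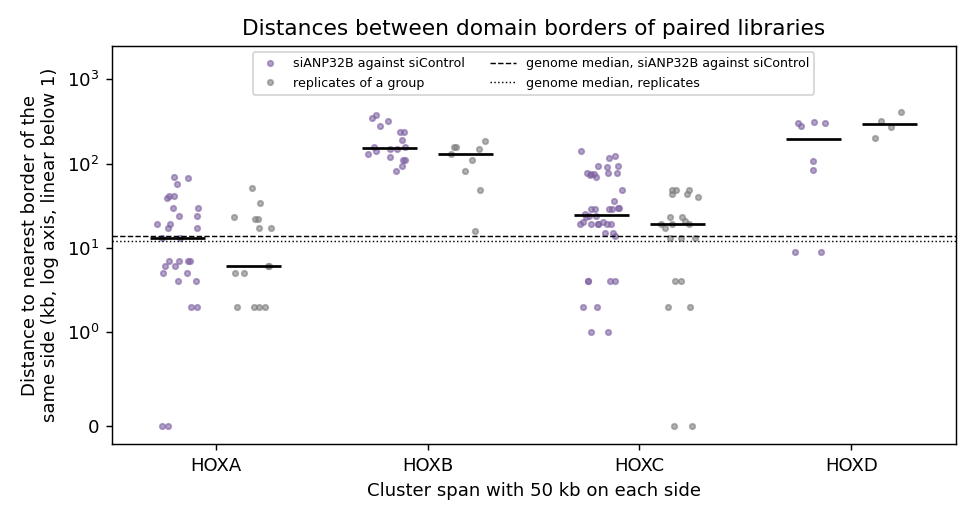
Distance in kb (y axis, log scale, linear below 1) from each domain border near a HOX cluster to the nearest border of the same side in the paired library, for pairs of siANP32B with siControl libraries (purple) and pairs of replicates (grey). Black bars are cluster medians, and the horizontal lines are the genome medians of 14 kb (dashed) and 12 kb (dotted). The medians of HOXB, HOXC and HOXD lie above both lines, and those of HOXA (13 and 6 kb) lie below the line of their kind.

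The authors' deposited table of differential regions reached into the HOX clusters at 2 places. Of its 4474 regions, 2 overlapped a HOX span, in HOXA and HOXC, and they took up 15 of the 193 kb that were in domains of both siControl libraries (7.77%, against 27.7% genome-wide). No region overlapped HOXB or HOXD. The nearest region lay 144.3 kb from HOXB13 and 947.1 kb from HOXD1. Of the 2 regions, the authors' deposited table called 1 lower and 0 higher (FDR at or below 0.05), where 58.4% of all regions were lower and 3.82% higher. At an unadjusted p below 0.05 in the authors' deposited table the counts were also 1 and 0. No other tool could be run, since the table has no values per library.

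The lower region covered 13 kb between HOXC13 and HOXC12. In the authors' deposited table it lies on chromosome 12 from 53945001 to 53958000 (hg38), with a log2 fold of -0.54 (FDR 0.00754, the authors' own test with Benjamini-Hochberg adjustment) and 4 of 4 windows down. It shared 3.10 kb with HOXC12 (76.4% of the gene) and 1.54 kb with HOXC13 (20.02%), and it contains the noncoding gene LOC105369775. The fold equals the middle of the authors' deposited table, where the median over all regions was -0.54 and 50.3% of regions were at or below it. The region was fully inside domains in all 4 libraries, so it was lower in siANP32B without a difference in domain coverage. Beyond the cluster on the HOXC13 side, the next regions of the authors' deposited table, 55.8 and 98.8 kb away, had log2 folds of -0.82 (FDR 0.00124) and -1.0 (FDR 3.30e-06).

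Any region of the authors' deposited table overlapped 3 of 39 HOX genes (7.69%), against 9.25% of all protein-coding genes. By gene, 2 of 39 HOX genes overlapped a lower region of the authors' deposited table, and 0 a higher one, against 5.61% and 0.539% of all protein-coding genes. The direction of the folds is not named in the authors' deposited table and was read as siANP32B over siControl from the domain lists. Of its 485 regions with a positive fold, 96.5% and 97.1% lay for 50% or more of their length in domains of siANP32B replicates 1 and 2, against 90.1% and 84.9% in siControl replicates 1 and 2. Of the 3989 with a negative fold the shares were 91.4% and 92.7% in siANP32B, against 95.5% and 93.5% in siControl libraries.

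**Figure D5:**
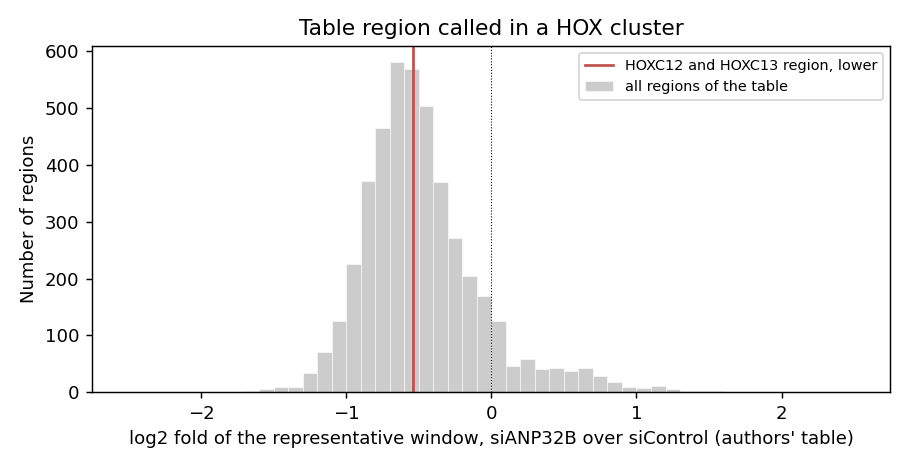
Number of regions (y axis) by log2 fold of the representative window, siANP32B over siControl, in the authors' deposited table (grey bars, 4474 regions). The coloured line marks the lower region at HOXC12 and HOXC13 (-0.54), near the middle of the distribution.

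Coverage also differed by position within the clusters. Of the 16 genes with paralog numbers 9 to 13, 7 (43.8%) were covered in all 4 libraries, against 3 of 12 with numbers 1 to 4 and 0 of 11 with numbers 5 to 8. Of the 4 HOX13 genes, 3 were covered in all 4 libraries, HOXD13 being the exception. Covered in both libraries of a group were 10 of 16 high-numbered genes in siANP32B and 7 of 16 in siControl cells, and of the genes numbered 5 to 8, 5 of 11 in siANP32B and 0 of 11 in siControl cells. The counts of 0 rest on siControl replicate 2: in single libraries 6 and 8 of these 11 genes were covered in siANP32B replicates 1 and 2, against 9 and 0 in siControl replicates 1 and 2. This grouping was made after the values were seen, and genes side by side often share 1 domain.

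The nearest coding genes outside the clusters were mostly outside domains. So were most protein-coding genes, of which 69.1% were covered in none of the 4 libraries. Of the 3 nearest protein-coding genes on each side of a cluster, TTLL6 beside HOXB13 was fully covered in all 4 libraries. SKAP1, on the HOXB1 side, was covered in 3 libraries, as given above. SNX11, 404.9 kb from HOXB, and HNRNPA3, 1022 kb from HOXD, were covered in siANP32B replicate 2 alone (100%, and 0% in the other 3 libraries). EVX1, a homeobox gene 42.7 kb from HOXA13, was covered by 0% in both siANP32B libraries, against 100% and 0% in siControl replicates 1 and 2. EVX2, 3.52 kb from HOXD13, was covered by 39.0% and 0% in siANP32B and by 0% in both siControl libraries. MTX2 and LNPK, which flank HOXD, were covered by at most 0.82% in any library, and SKAP2 and HIBADH, which flank HOXA, by at most 4.28%. On the HOXC side, SMUG1 reached at most 8.95%, and CBX5, which encodes a heterochromatin protein, was at 0% in all 4 libraries. Of these neighbours only SNX10, 718.6 kb from HOXA, overlapped a lower region of the authors' deposited table, as did 5.61% of all protein-coding genes.

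Other genes linked to HOX function were described beside the shares of all protein-coding genes, of which 11.5% were covered in all 4 libraries and 9.25% overlapped a region of the authors' deposited table. Of 9 TALE genes, which encode the DNA-binding partners of HOX proteins, 1 (11.1%) was covered in all 4 libraries (MEIS3), and none overlapped a region of the authors' deposited table. PBX4 was covered by 61.4% and 26.8% in siANP32B, against 57.4% and 63.7% in siControl libraries. PBX2, named after its values were seen as the TALE gene with both siANP32B libraries above both siControl libraries, was covered by 100% and 58.5% in siANP32B, against 0% in both siControl libraries. Of 6 ParaHox genes, the sister group of the HOX genes, 3 were fully covered in all 4 libraries: CDX1, CDX2 and GSX2. CDX2 and its neighbour PDX1 overlapped the same lower region of the authors' deposited table, with a log2 fold of -0.63 (FDR 0.0104). Of 20 Polycomb and Trithorax group genes and CTCF, which regulate HOX clusters, 1 (5%) was covered in all 4 libraries (CBX7), and none overlapped a region of the authors' deposited table. In 3 of the 20 (15%) both siANP32B libraries lay above both siControl libraries, and in 0 below, against 8.98% and 2.92% of all protein-coding genes. CBX8, a Polycomb gene named after its values were seen as the one with the largest difference, was covered by 100% in both siANP32B libraries, against 1.56% and 17.6% in siControl libraries. RING1, a Polycomb ubiquitin ligase gene named in the same way, was covered by 100% and 11.9% in siANP32B, against 0% in both siControl libraries, and EED, a gene of the same group, by 2.91% and 0.579%, against 0% in both.

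PAX, LHX and TBX genes, developmental factors outside HOX clusters, were covered in all 4 libraries for 12 of 30 (40%), against 25.6% of HOX genes and 11.5% of all protein-coding genes. Any region of the authors' deposited table overlapped 10 of the 30 (33.3%), against 9.25% of all protein-coding genes, and 58.4% of all its regions were lower. Of the 30, 8 (26.7%) overlapped a lower region and 0 a higher one, against 5.61% and 0.539% of all protein-coding genes and 2 and 0 of 39 HOX genes. TBX15 (-0.78, FDR 0.000422), TBX10 (-0.66, FDR 0.00136), PAX5 (-0.61, FDR 0.00143) and LHX4 (-0.60, FDR 0.00337) had, of this list, the smallest p-values in the authors' deposited table (log2 folds are given). Among the genes of this list fully covered in all 4 libraries were PAX1, PAX8, TBX10 and TBX21. The counts are given beside each other as a description, since no test of the lists was made.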

How the data were processed

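CUT&RUN reads of HepG2 macroH2A1 libraries were processed by the authors. The submitters' processing notes name hg38 as build and list edgeR, SICER, deepTools, SAMtools, Bowtie2 and Trim Galore, with no versions. The authors deposited, per library, a list of broad domains with ends on a 1 kb grid and the caller's score. They also deposited a table of differential regions that holds, per the file headers, p-values, false discovery rates, a log fold read as log2, and numbers of windows. Depth and scaling of each library are unknown, so no interval on coverage can be given. With 2 libraries per group, the smallest exact p is 0.333. Alternatives were other spans, domain filters, coverage rules, thresholds, the replicate block and leaving out each library.

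Coverage was computed from base overlaps (Python 3.11.15, pandas 2.3.3, NumPy 2.4.6), with each domain extended by the base missing at its end. The false discovery rates of the authors' deposited table matched a Benjamini-Hochberg adjustment over its 4474 regions to within 1.11e-15. Group differences used an exact permutation test over libraries (two-sided). Coverage and border distances were tested on simulated data. Sequences and gene positions came from RefSeq (GRCh38.p14). Named genes were drawn from all HOX genes, the 3 nearest coding genes per side and up to 4 members per related list. Not all of the nearest coding genes are named. Noncoding genes in a span were named if they overlap a table region or differ by 50 points or more. HOTAIR, MIR196A1, MIR196A2, MIR10B, MIR615, PBX2, CBX8, RING1 and EED fall outside these rules and were chosen after their values were seen. Members and lists were chosen with earlier results of these data known. A HOX gene enters the counts but is not reported here by name or in the figures.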

Additional observations from a re-analysis of the deposited data

How the results depend on the processing

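The call in the authors' deposited table (1 lower region and 0 higher) was the same at false discovery rates of 0.01 and 0.1, with at least 50% of the region inside the span, and with spans widened by 50 kb. The cluster differences were not stable. The cut at the median score of all lists compares scores across lists, and it kept a smaller share of the siANP32B domains. Among domains at or above the median score of all lists, HOXA was at -3.27 and HOXB at -23.4 points, HOXD was at 0, and the HOX genes covered in both libraries were 5 in siANP32B and 4 in siControl cells. Equal numbers of domains per library removed mostly low-scored siControl domains. With them the counts of covered HOX genes were 20 in siANP32B and 7 in siControl cells, and HOXD was at 50 points. With the span widened HOXD was at 26.2 points. HOXC turned to 4.604 points with the span widened and to 13.2 with equal numbers of domains per library. Leaving out each library in turn gave 2.80 to 11.2 points for HOXA, 0 to 42.5 for HOXB, -26.5 to 25.6 for HOXC and -43.99 to 56.0 for HOXD; HOXC was at 14.9 without siANP32B replicate 1 and 25.6 without siControl replicate 1, and HOXD at -43.99 without siANP32B replicate 1 and -38.0 without siControl replicate 2. The covered count in siControl cells was 11 to 32 (32 without siControl replicate 2) and in siANP32B cells 24 to 29. These counts could only stay or rise, since coverage was then required in the remaining library of the group alone. The median border distance between replicates was 28.5 kb without widened spans and 17 to 23 kb without single libraries, and between groups 19 kb without widened spans and 25 to 29 kb without single libraries. The cause was not tested. Left-out libraries could not be applied to the authors' table. With the 1 kb bins a gene touches as the measure, chosen after seeing the data, the counts stayed at 20 and 10. Leaving out HOXD, also chosen after seeing the data, could not change them. No HOXD gene was covered in both libraries of a group.

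With the replicate block, the paired differences were 7.0 (HOXA), 21.2 (HOXB), -0.43 (HOXC) and 6.01 points (HOXD), equal to the unpaired ones, with an exact p of 0.5 for HOXA and 1 for the others. The replicate deviations of the groups correlated at 0.0204 over 774103 bins of 1 kb, so the numbers were not taken as pairs.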
